A study of Mus musculus with 8 samples.

Results

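Described here are 29 genes of Schwann cells, other glia and crest-derived nerve, chosen by name and grouped by role. They comprise 10 genes of myelin structure, 5 regulators and signals of myelination, 10 genes of immature or non-myelinating Schwann cells and crest-derived glia, and 4 receptors of the GDNF family. All 29 were found once each among the 54418 Ensembl genes of the deposited count table, and 28 passed the filter on low counts, under which 16011 genes were tested; Ret did not pass it. The study sequenced RNA of melanocyte stem cells, the reserve of pigment-forming cells in the hair follicle, with 4 control and 4 Bmi1-deleted libraries, each from at least 10000 sorted cells. The control mice were floxed at Bmi1 (Bmi1fl/fl) and carried the transgenes Dct-rtTA and TRE-H2B-GFP, and the Bmi1-deleted mice had the same alleles and transgenes plus Tyrosinase-Cre. Both groups were thus floxed, fed doxycycline pellets, of mixed C57Bl-6;129Sv strain and taken at postnatal day 21, and cells from dorsal skin were sorted as live, not autofluorescent and positive for GFP. The reporter is driven through Dct and the Cre through the tyrosinase promoter, so both depend on promoters of pigment cells. The controls carry no Cre, so an effect of Cre itself and an effect of the deletion cannot be told apart. No label says that the 4 libraries of a group came from separate animals, so p-values measure the spread between these samples only.

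Schwann cells wrap the axons of peripheral nerves, including the fine nerves of skin, and arise from the neural crest, as melanocytes do. Immature Schwann cells express Ngfr and Gap43, and those that make myelin switch on Egr2 and then the proteins that compact and anchor the sheath. GFRα proteins bind GDNF family ligands at the cell surface and pass the signal on with the kinase RET or other partners. Nerve-associated Schwann cell precursors are a known source of skin melanocytes in the embryo.

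Transcripts of myelin, of immature Schwann cells and of GDNF receptors were detected in the sorted cells of both genotypes, with higher mean levels in the Bmi1-deleted libraries for all tested members but Fabp7. The log2 change was above 0 for 27 of the 28 tested genes, as for 50.7% of all 16011 genes. Its median was 0.55 against 0.01 over all 16011 genes. Of the 28, 20 were higher in all 4 pairs of libraries with the same replicate number, as were 11.0% of all tested genes. No gene of the 28 passed edgeR's quasi-likelihood test at an adjusted p under 0.05, as 0.0937% of all tested genes did (0.0874% higher and 0.00625% lower). At an unadjusted p under 0.05, 11 were higher and 0 lower, against 4.82% and 3.45% of all genes. With the replicate number as a block, 13 of the 28 rose and 0 fell, where 2.41% of all tested genes passed, 1.71% higher and 0.706% lower. At an unadjusted p under 0.05 with the block, 21 were higher and 0 lower, against 7.30% and 5.01% of all genes. The 13 that rose with the block were Mbp, Pmp22, Mal, Prx and Cnp of the myelin genes, the signals Dhh and Lgi4, Ngfr, Scn7a, Matn2 and Gpm6b of the immature group, and the receptors Gfra2 and Gfra3. DESeq2 without a block called Ngfr, Matn2 and Nes higher, 3 of 28, and 0 lower, where 0.987% of all genes passed, 0.687% higher and 0.300% lower. By its unadjusted p under 0.05, 17 were higher and 0 lower, against 5.46% and 3.59% of all genes. Levels are CPM, counts scaled to each library's TMM-adjusted total, with the mean and SD over 4 libraries, and adjusted p-values are from edgeR over all 16011 genes.

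The libraries held 8882656 to 10368174 counts. Bmi1 itself had 705 to 859 counts in control and 607 to 713 in Bmi1-deleted libraries (log2 change −0.26, SE 0.12, edgeR adjusted p = 0.607, 0.435 with the block). These counts are over the whole gene, and which exons were floxed is not known here, so they are a weak check of the labels. Cdkn2a, a classic target of Bmi1 repression, had 0 counts in each control library and 38 to 85 in the Bmi1-deleted libraries. All 10 melanocyte markers listed for the labelled cell type were detected, and Dct stood at 4997 ± 1295 CPM in control libraries (SD, n = 4). In bulk RNA, fewer cells of a type and less RNA per cell cannot be told apart, which holds for each level given here.

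Promoter sequence is shown for 4 members, with motifs of the families of SOX10, EGR2 and POU3F1, the classic activators of the myelin programme. Whether these factors act on the 4 genes was not tested. RefSeq windows of the GRCm38.p6 build, the assembly that mm10 names, were available here for 18 of the 29 members. The 250 bases before each start were searched on both strands for the SOX core motifs ACAAAG and ACAATG, the EGR motifs GCGTGGGCG and GCGGGGGCG, and the POU octamer ATGCAAAT. Scn7a was the member with an EGR match among the 18 searched. Prx holds the octamer, Cnp a SOX core, and Ngfr none of the 5 motifs. The sequences are printed 5′ to 3′ on the strand of the gene, with the matches in capitals, and the examples were picked after the search.
Scn7a, chr2:66784911-66785160, minus strand: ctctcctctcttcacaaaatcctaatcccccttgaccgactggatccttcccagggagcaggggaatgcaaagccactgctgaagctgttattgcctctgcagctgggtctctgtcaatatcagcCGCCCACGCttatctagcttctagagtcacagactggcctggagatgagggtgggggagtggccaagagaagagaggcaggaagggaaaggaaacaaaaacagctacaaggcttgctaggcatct
Prx, chr7:27499074-27499323, plus strand: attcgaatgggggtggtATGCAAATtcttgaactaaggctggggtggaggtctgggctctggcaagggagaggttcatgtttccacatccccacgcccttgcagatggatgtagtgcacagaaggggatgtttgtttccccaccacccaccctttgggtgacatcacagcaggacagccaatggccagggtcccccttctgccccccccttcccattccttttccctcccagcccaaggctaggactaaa
Cnp, chr11:100574689-100574938, plus strand: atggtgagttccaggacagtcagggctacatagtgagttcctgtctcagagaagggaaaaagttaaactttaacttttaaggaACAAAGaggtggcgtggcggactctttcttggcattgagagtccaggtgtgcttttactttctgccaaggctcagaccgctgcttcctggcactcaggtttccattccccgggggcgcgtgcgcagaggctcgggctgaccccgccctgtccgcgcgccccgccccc
Ngfr, chr11:95587699-95587948, minus strand: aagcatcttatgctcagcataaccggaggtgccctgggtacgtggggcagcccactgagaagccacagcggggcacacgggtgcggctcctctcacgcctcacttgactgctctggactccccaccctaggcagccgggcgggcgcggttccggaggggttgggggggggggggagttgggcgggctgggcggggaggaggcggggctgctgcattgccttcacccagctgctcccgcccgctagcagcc
The capitals of Scn7a are GCGTGGGCG read on the opposite strand and begin 125 bases before the start, those of Prx begin 233 and those of Cnp 167 bases before it, and no matches overlapped. Over all 32851 windows of this length, 16.5% held ACAAAG, 10.7% ACAATG, 0.536% GCGTGGGCG, 2.57% GCGGGGGCG and 1.60% ATGCAAAT. The 18 members have 29 windows, since a gene can have several starts; 4 held ACAAAG (of Cnp, Gpm6b and Mag), 1 GCGTGGGCG and 4 ATGCAAAT (of Egr2 and Prx). A match is a run of letters and not a shown binding site.

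Of the 10 genes of myelin structure, 5 rose with the block and 0 fell, against 1.71% and 0.706% of all tested genes. All 10 had positive changes in both fits, where 50.7% of all tested genes did without and 50.3% with the block. Mbp, which encodes the basic protein that holds the inner faces of the myelin membrane together, had 635, 514, 387 and 303 CPM in control libraries 1 to 4 and 691, 803, 662 and 480.1 in Bmi1-deleted libraries 1 to 4. Controls 1 and 2 lay above Bmi1-deleted 4, so the groups overlapped, while the Bmi1-deleted library was the higher in each same-numbered pair. Its means were 459.8 ± 145 and 659 ± 134 CPM (SD, n = 4; log2 change 0.52, SE 0.22, adjusted p = 0.575 without and 0.0123 with the block). Pmp22, a compact-myelin protein whose gene dosage underlies inherited neuropathy, had 767, 686, 479 and 401 CPM in the control and 813, 973, 736 and 614 in Bmi1-deleted libraries. It was the most abundant member in CPM, its pair 1 differed little, and it rose with the block (0.46, SE 0.11, adjusted p = 0.0294; 0.633 without).

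Mal, a raft protein that helps carry myelin components to the membrane, had 238, 222, 137 and 118 CPM in the control and 326, 318, 239 and 199 in Bmi1-deleted libraries. Bmi1-deleted 4 lay below controls 1 and 2, and the other Bmi1-deleted libraries matched or exceeded every control. The change with the block was 0.63 (SE 0.10, adjusted p = 0.00261; 0.561 without it). Prx, the periaxin of the outer sheath membrane, had 352, 269, 248 and 181 CPM in the control and 403, 478, 387 and 326 in Bmi1-deleted libraries. Only control 1 overlapped the Bmi1-deleted range (0.63 with the block, SE 0.11, adjusted p = 0.00595; 0.366 without). Cnp, an enzyme of non-compact myelin, had 389, 299, 262 and 186 CPM in the control and 461, 463, 424 and 342 in Bmi1-deleted libraries, again with control 1 alone inside the Bmi1-deleted range (0.61, SE 0.11, adjusted p = 0.00527; 0.425 without).

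The other 5 myelin genes did not pass in either fit. Cldn19, the claudin of Schwann cell tight junctions, stood at 161 ± 52.5 and 231 ± 52.5 CPM in the control and deleted groups (adjusted p = 0.0979 with the block). It passed in the blocked fit without pair 1 (adjusted p = 0.00278). Mag, an adhesion protein of the inner sheath that faces the axon, had 66.2 CPM in control 1 and 43.5 or less in the other controls, and 60.3, 60.3, 70.9 and 75.7 in Bmi1-deleted libraries. Control 1 was as high as the Bmi1-deleted libraries and the other controls lay below them (0.74 with the block, SE 0.24, adjusted p = 0.211); without pair 1 it passed (adjusted p = 0.00961). Drp2, the partner of periaxin beneath the outer membrane, ranged from 13.2 to 66.4 CPM in the control and from 47.3 to 80.1 in Bmi1-deleted libraries. Ncmap, a protein of non-compact myelin, ranged from 11.5 to 35.6 and from 11.7 to 53.6 CPM. Pmp2, a fatty acid carrier of myelin, was the least abundant of the group, at 5.22 ± 4.27 and 6.47 ± 2.45 CPM, and its sign turned without control 3. Most of the exon bases of Pmp2 (1224 of 1408) also belong to the predicted gene Gm37389 on the same strand. The mean level of Gm37389 was 0 CPM for the control group and 0.0552 for the deleted group, so hardly any reads were assigned to it. How reads over the shared bases were assigned was not tested. For Drp2, Ncmap and Pmp2 the standard error of the log2 change was 0.49 to 0.59 without the block, and their changes were not detectable at that spread.

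**Figure D1:**
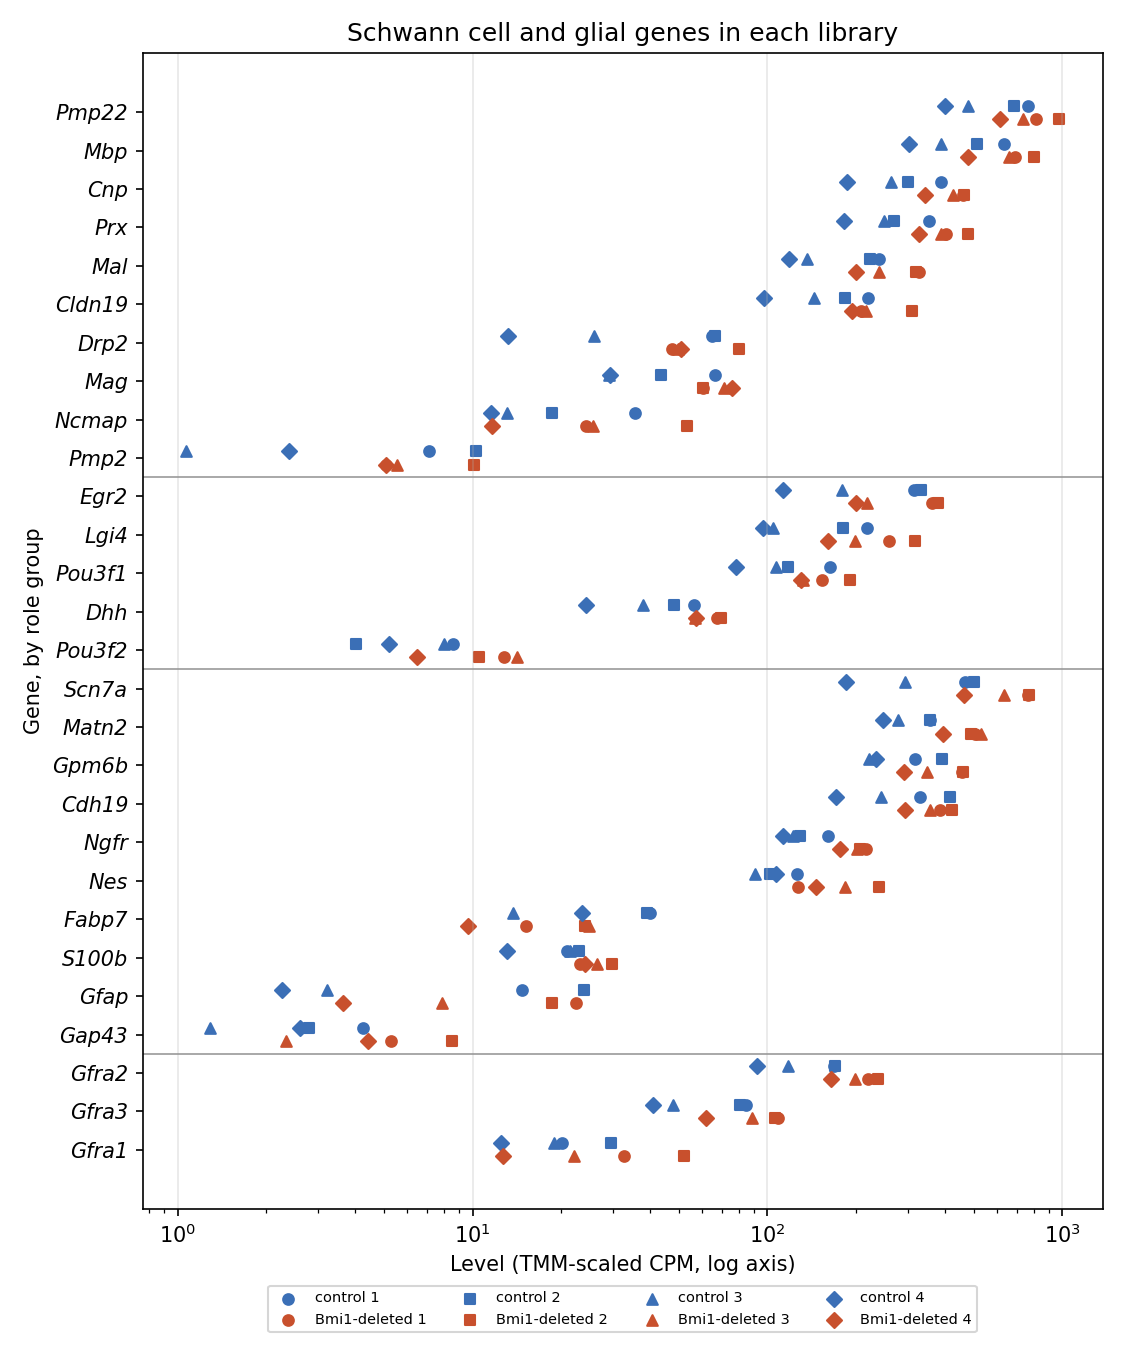
Level of each of the 28 tested genes in each library, in TMM-scaled CPM on a log axis, grouped by role from myelin structure at the top to GDNF receptors at the bottom; blue marks are control and red marks Bmi1-deleted libraries, with 1 marker shape per replicate number. Within most rows the same-numbered red mark lies to the right of the blue mark, while Dhh, Ngfr, Nes, S100b and Matn2 are the 5 rows in which the groups do not overlap.

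Of the 5 regulators and signals of myelination, 2 rose with the block and 0 fell, against 1.71% and 0.706% of all tested genes. Lgi4, a secreted protein that Schwann cells need to myelinate on time, had 218, 180.0, 105 and 96.4 CPM in the control and 259, 318, 198 and 161 in Bmi1-deleted libraries. The groups overlapped, and within each pair the Bmi1-deleted library was higher (0.68 with the block, SE 0.12, adjusted p = 0.00398; 0.633 without). Its exons share 2059 of 4584 bases with Fxyd3 on the opposite strand, which stood at 9.06 and 13.1 CPM, and although the kit was stranded, whether the counting used strand is unknown here. Dhh, the hedgehog ligand by which Schwann cells organise the sheath of the nerve, had 56.2, 48.2, 38.0 and 24.2 CPM in the control and 67.2, 69.4, 56.8 and 57.3 in Bmi1-deleted libraries. Every Bmi1-deleted library was above every control, by a small margin between control 1 and Bmi1-deleted 3 (0.64 with the block, SE 0.16, adjusted p = 0.0478; 0.481 without). Its exons share 546 of 4399 bases with Rhebl1 on the same strand.

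The transcription factors of the group did not pass in either fit. Egr2, the master factor of the myelin genes also known as Krox20, had 314, 332, 179 and 113 CPM in the control and 361, 378, 218 and 200.3 in Bmi1-deleted libraries. Pairs 1 to 3 lay close together and replicates 3 and 4 were low in both genotypes, and the standard error was 0.38 without and 0.11 with the block (change 0.37, adjusted p = 0.122). Its direction turned in the deposited log2 TPM. Pou3f1, a POU factor that times the onset of myelination and acts before Egr2, stood at 116 ± 35.1 and 151 ± 28.1 CPM (adjusted p = 0.15 with the block). Pou3f2, its relative with overlapping function, was near the low end at 6.46 ± 2.21 and 11.0 ± 3.36 CPM (adjusted p = 0.344 with the block).

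Of the 10 genes of immature and non-myelinating Schwann cells, 4 rose with the block and 0 fell, against 1.71% and 0.706% of all tested genes. Scn7a, an atypical sodium channel gene typical of non-myelinating Schwann cells, had 467, 503, 293 and 185 CPM in the control and 767, 773, 632 and 464 in Bmi1-deleted libraries. Only Bmi1-deleted 4 lay below the highest controls, and each pair differed by at least 0.62 on the log2 scale. Means were 362 ± 149.6 and 659 ± 145 CPM, and the change with the block was 0.94 (SE 0.12, or 1.92-fold, adjusted p = 0.000592; 0.495 without). It had the lowest adjusted p of the 28 genes with the block.

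Ngfr, the low-affinity neurotrophin receptor p75 that marks crest cells and immature Schwann cells, had 161, 129, 122 and 113 CPM in the control and 216, 205, 201 and 177 in Bmi1-deleted libraries. The groups did not overlap, and the libraries of each group lay close together. Means were 131 ± 20.7 and 199.8 ± 16.7 CPM (log2 change 0.61, SE 0.13, adjusted p = 0.116 without the block, 0.0031 with it and 0.00548 by DESeq2). Without control 1 it passed edgeR's test without a block (adjusted p = 0.0421), the only member to do so in any of the 8 fits that each left out 1 library. Matn2, a matrix protein that Schwann cells lay down and that favours axon growth, had 355, 357, 278 and 246 CPM in the control and 506, 489.6, 529 and 393 in Bmi1-deleted libraries. These groups did not overlap either (0.64 with the block, SE 0.10, adjusted p = 0.00252; 0.144 without, 0.00775 by DESeq2). Gpm6b, a membrane proteolipid, had 317, 392, 221 and 234 CPM in the control and 458, 460.3, 346 and 289 in Bmi1-deleted libraries. Its groups overlapped and its change was the smallest of the 13 (0.43 with the block, SE 0.10, adjusted p = 0.0312; 0.633 without).

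Nes, the intermediate filament nestin of neural progenitors and crest-derived cells, had 126, 102, 90.5 and 107 CPM in the control and 127, 239, 184 and 146 in Bmi1-deleted libraries. The groups did not overlap, but control 1 and Bmi1-deleted 1 differed by 0.02 on the log2 scale while pair 2 differed by 1.23. It passed with DESeq2 (adjusted p = 0.0371) and not with edgeR (adjusted p = 0.225 without and 0.127 with the block). S100b, a calcium-binding protein of Schwann cells and of melanocytes, also had separate groups, at 19.6 ± 4.40 and 25.8 ± 2.92 CPM (adjusted p = 0.674 and 0.425). Of the 28 genes, 5 had every Bmi1-deleted library above every control, as did 2.79% of all tested genes, and 0 had every one below, as did 2.39%.

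Cdh19, a cadherin of Schwann cell precursors, had 328, 415, 243 and 171 CPM in the control and 386, 423, 356 and 293 in Bmi1-deleted libraries. Pair 2 was level and the other pairs favoured the Bmi1-deleted library (0.40 with the block, adjusted p = 0.106). Fabp7, a brain-type fatty acid carrier of immature glia, was the member with a negative change. It had 40.0, 39.0, 13.7 and 23.5 CPM in the control and 15.2, 24.0, 24.8 and 9.64 in Bmi1-deleted libraries, lower in pairs 1, 2 and 4 and higher in pair 3 (−0.66, SE 0.37, adjusted p = 0.727 without and 0.537 with the block). Without pair 3 the blocked fit called it lower (adjusted p = 0.0268). Gfap, the filament of astrocytes and of non-myelinating Schwann cells, ranged from 2.26 to 23.8 CPM in the control and from 3.63 to 22.4 in Bmi1-deleted libraries. Replicates 1 and 2 were high in both genotypes and 3 and 4 low, and the sign of its change turned in 4 alternatives. Gap43, a growth-associated protein of immature Schwann cells and growing axons, was the scarcest of the tested members, at 2.73 ± 1.21 and 5.15 ± 2.58 CPM (adjusted p = 0.728).

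Of the 3 tested GDNF family receptors, 2 rose with the block, Gfra2 and Gfra3, and 0 fell, against 1.71% and 0.706% of all tested genes. Gfra2, the receptor that prefers neurturin, had 169, 169, 117 and 92.4 CPM in the control and 219.5, 237, 198 and 164 in Bmi1-deleted libraries. Bmi1-deleted 4 lay just below controls 1 and 2 and the other Bmi1-deleted libraries above every control (0.61 with the block, SE 0.11, adjusted p = 0.00512; 0.417 without). Gfra3, the receptor that prefers artemin, had 84.4, 80.8, 47.9 and 41.1 CPM in the control and 109, 106, 88.5 and 61.8 in Bmi1-deleted libraries, with the same overlap (0.55, SE 0.13, adjusted p = 0.0293; 0.639 without). Gfra1, the receptor that prefers GDNF itself, had 20.1, 29.5, 18.9 and 12.4 CPM in the control and 32.5, 52.2, 22.1 and 12.7 in Bmi1-deleted libraries. Its pair 4 was level and its pairs 1 and 2 lay furthest apart (0.46, SE 0.20, adjusted p = 0.36 with the block). Ret, the kinase that the family shares, had 0, 1, 12 and 0 counts in control and 2, 3, 0 and 10 in Bmi1-deleted libraries. In 3 libraries the count was at or above the floor of 3 counts, 3 held none, and the gene was too scarce to be tested.

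**Figure D2:**
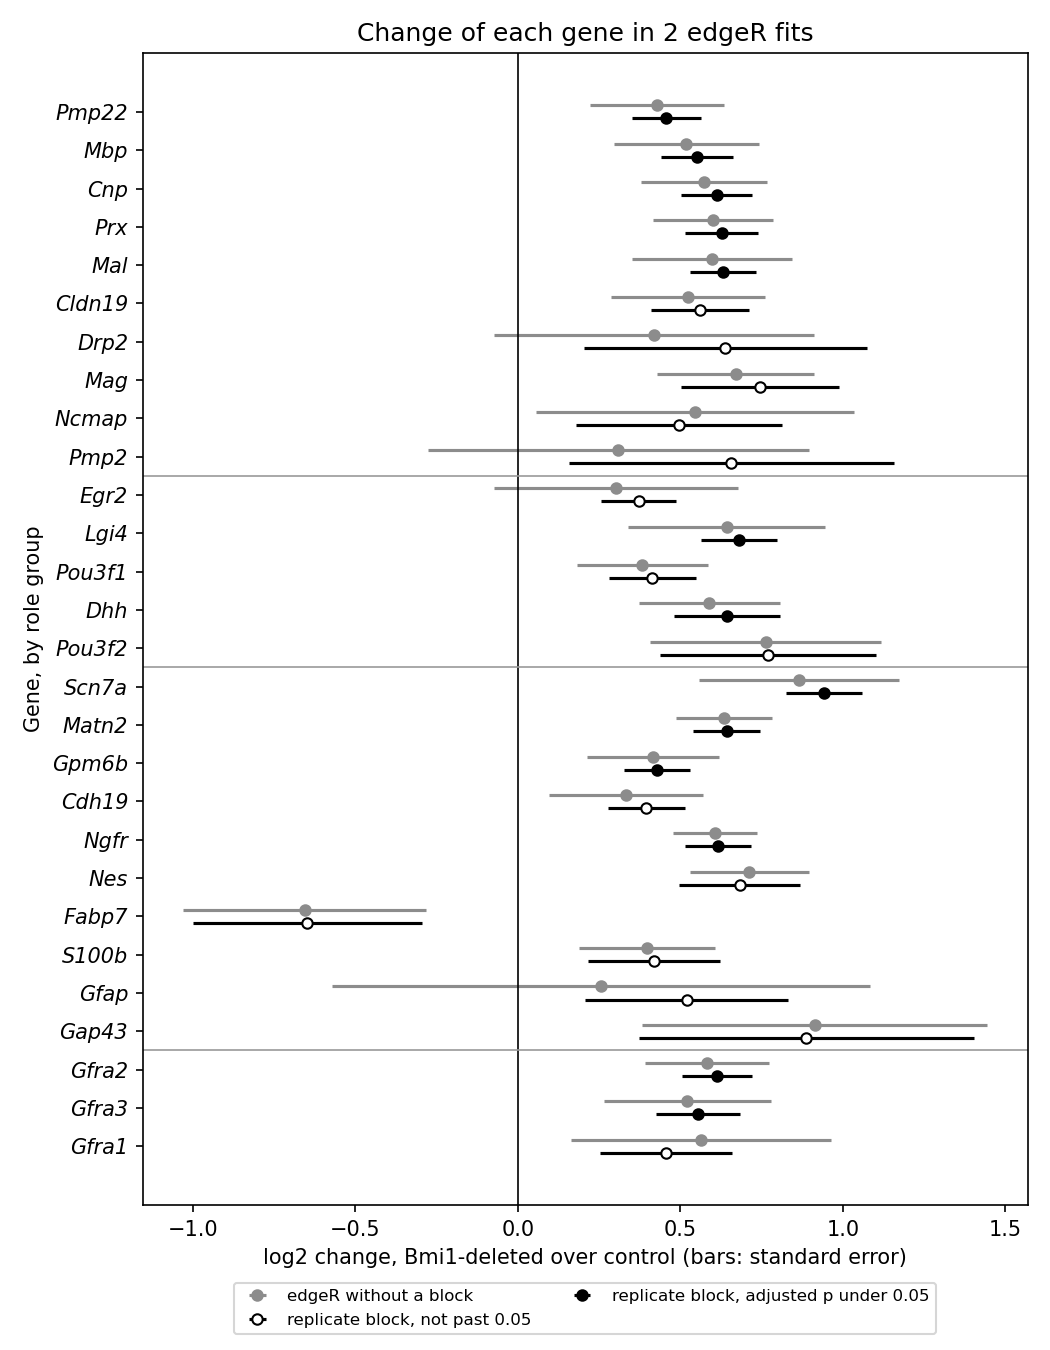
Log2 change (Bmi1-deleted over control) of each tested gene with its standard error, grouped by role; grey points are the edgeR fit without a block, and black points the fit with the replicate number as a block, filled where the adjusted p was under 0.05. Fabp7 lies left of 0 and the other 27 genes right of it, and the 13 filled points span 0.43 for Gpm6b to 0.94 for Scn7a.

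The calls with the block depended on which pairs were included. Mal, Ngfr, Scn7a, Matn2 and Gfra2 passed in all 4 blocked fits that each left out 1 pair, with highest adjusted p-values of 0.0303, 0.0452, 0.0106, 0.032 and 0.0461 in that order. Lgi4 passed in 3 of them, Prx and Cnp in 2, Mbp, Pmp22 and Dhh in 1, and Gpm6b and Gfra3 in none (highest adjusted p = 0.248 and 0.212). Without pair 1, in which the genotypes were closest for most myelin genes, 15 of the 28 rose. They included Mag, Cldn19, Pou3f1 and Nes, which did not pass the blocked fit with all pairs. Without pair 2, 5 of the 28 rose. The number over all tested genes moved the same way, with 264 of 16279 that rose without pair 1 and 89 of 16178 without pair 2. All 5 genes that passed throughout are protein-coding in GENCODE M21 on GRCm38: Scn7a at chr2:66673425-66784914 and Mal at chr2:127633226-127656695 on the minus strand, Ngfr at chr11:95568818-95587735 on the minus strand, and Gfra2 at chr14:70890120-70979838 and Matn2 at chr15:34306677-34436273 on the plus strand.

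The genes largely moved together from library to library. Control 4 was the lowest library for 21 of the 28 genes and control 3 for 5, and Bmi1-deleted 2 was the highest for 19. The median level of the 28 genes relative to each gene's control mean was 0.41, 0.23, −0.27 and −0.60 on the log2 scale in controls 1 to 4, and 0.64, 0.74, 0.42 and 0.16 in Bmi1-deleted 1 to 4. Control libraries 1 and 2 thus stood above Bmi1-deleted 4, and replicates 1 and 2 stood above 3 and 4 within each genotype. The median log2 change of each role group was 0.53 for myelin structure, 0.59 for regulators and signals, 0.51 for the immature group and 0.56 for the 3 tested GDNF receptors without the block. With the block these medians were 0.62, 0.64, 0.57 and 0.55. A difference between the role groups was not tested.

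**Figure D3:**
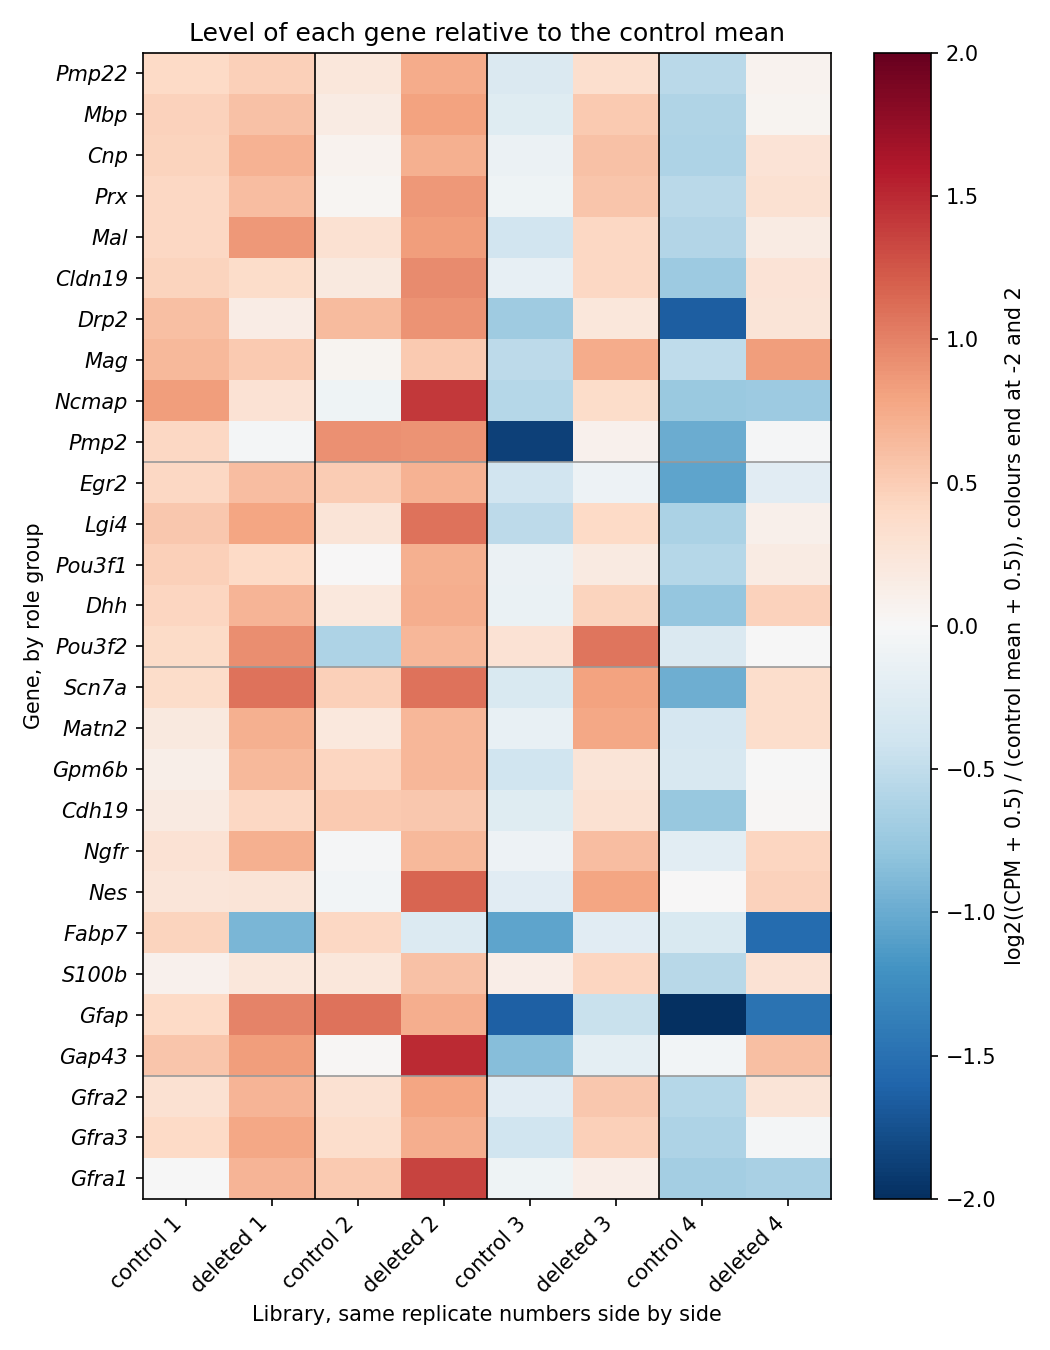
Level of each tested gene in each library relative to its control mean, as log2 of CPM + 0.5, with same-numbered libraries side by side; red is higher and blue lower, and colours end at −2 and 2. The column of control 4 is blue for nearly every gene, that of Bmi1-deleted 2 red for nearly every gene, and Fabp7 and Gfap depart most from the rest.

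On a per-length scale, the deposited TPM after leaving out the 2 genes that took 74.0% to 85.9% of it (Gm23935 and CT010467.1), Pmp22 and Mbp were the most abundant members, at 677 ± 246 and 638 ± 273 TPM in control and 897 ± 193 and 881 ± 184 in Bmi1-deleted libraries. These 2 did not differ beyond their spread. Cnp followed at 209.9 ± 68.6 TPM in control libraries, then Egr2 at 183 ± 96.5, Matn2 at 156 ± 26.8 and Cdh19 at 150.3 ± 51.9, with overlapping spreads. Scn7a, among the most abundant members in CPM, stood at 82.7 ± 36.1 TPM, and Gfra2, Gfra3 and Gfra1 at 75.7 ± 24.4, 57.8 ± 21.9 and 12.4 ± 6.49. For comparison the pigment enzyme gene Dct stood at 4994 ± 1164 TPM in control and 3194 ± 1387 in Bmi1-deleted libraries on the same scale.

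Beyond the members, 19 other Schwann cell and crest genes were tested, of which 3 rose with the block and 0 fell, and 0 passed without it (4 higher and 1 lower at an unadjusted p under 0.05; 1 rose by DESeq2). Cadm4, an adhesion protein of the inner sheath, stood at 168 ± 42.6 and 260.4 ± 35.4 CPM, with overlapping groups (0.66 with the block, SE 0.10, adjusted p = 0.00237; 0.246 without). Gjc3, a connexin, and Plekhb1 rose with the block as well (adjusted p = 0.0253 and 0.0311). Sox10, the crest factor expressed by Schwann cells and melanocytes alike, stood at 415 ± 41.5 and 463 ± 40.7 CPM (log2 change 0.16, adjusted p = 0.818). The immature or crest factors Sox2 and Foxd3 had 0.06 and 0.03 (adjusted p = 0.976 and 0.977). Erbb3, the neuregulin receptor of both lineages, had 0.23 (adjusted p = 0.59) and its partner Erbb2 0.38 (adjusted p = 0.686). Jun, a factor of the injury response of Schwann cells, had 0.22, and the EGR2 cofactors Nab1 and Nab2 had −0.34 and −0.12 (adjusted p = 0.88, 0.575 and 0.903). Of the lipid enzymes of myelin, Fa2h had 0.42 and Ugt8a 0.35 (adjusted p = 0.691 and 0.869). The adhesion genes L1cam and Ncam1 had 0.39 and 0.22, Art3 0.38 and Gldn, a gene of the node of Ranvier, −0.02 (adjusted p = 0.654, 0.818, 0.501 and 0.993). The median of the 19 was 0.22, against 0.55 for the members and 0.01 for all genes.

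Ligands and partners of the receptors were also read from the same fit. Of 9 tested GDNF family ligands, other receptors and adaptors, 0 passed in either fit (0 higher and 1 lower at an unadjusted p under 0.05, and 0 by DESeq2), with a median of −0.02. Gdnf itself had 42.4 ± 22.8 and 52.6 ± 17.9 CPM (adjusted p = 0.917), the receptor-like proteoglycan gene Sdc3 460.3 ± 106 and 444 ± 85.5 (adjusted p = 0.979), and the adaptor gene Shc1 106 ± 15.7 and 81.8 ± 7.98 (adjusted p = 0.448). Grb10 and Frs2, 2 other adaptor genes above 10 CPM, had 0.21 and 0.11 (adjusted p = 0.761 and 0.898). Nrtn and Artn, the ligands of Gfra2 and Gfra3, were at 3.21 CPM or less in every library. Of 7 tested neurotrophin genes, 1 rose with the block, Ntrk3, the receptor of neurotrophin 3, at 47.8 ± 15.8 and 84.2 ± 25.6 CPM (0.84, SE 0.15, adjusted p = 0.00603; 0.437 without), and 0 passed without it (2 higher and 0 lower at an unadjusted p under 0.05, and 0 by DESeq2).

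Markers of central glia were nearly absent. Of 11 such markers, Opalin, Olig1, Olig2 and Aqp4 had 0 counts in all 8 libraries, which allows up to 0.289 to 0.338 CPM in a library, 8 had a mean under 1 CPM, and their summed level was 4.53 to 10.3 CPM in the control and 11.7 to 16.8 in Bmi1-deleted libraries. The members' summed level was 2901 to 5639 CPM in the control and 4897 to 7580.2 in Bmi1-deleted libraries.

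Markers of melanocytes and of fibroblasts also differed between the libraries. The summed level of the 10 melanocyte markers was 8293, 9351, 12213 and 14244 CPM in controls 1 to 4 and 4778, 4443, 8290.1 and 9877 in Bmi1-deleted 1 to 4; 8 of the 10 fell with the block and 0 rose (median log2 change −0.78 without the block, where 0 passed, with 0 higher and 7 lower at an unadjusted p under 0.05 and 2 lower by DESeq2). Those 8 were Dct, Tyr, Tyrp1, Pmel and Slc45a2 of pigment formation, Mlana, the master factor Mitf and the receptor Kit. Their changes with the block ran from −1.06 for Mlana to −0.66 for Kit. Libraries with more of the Schwann cell genes had less of these, in both genotypes. The summed level of the 17 fibroblast markers was 4810 to 8212 CPM in the control and 7825 to 17721 in Bmi1-deleted libraries, and 8 of 16 tested rose with the block (median 0.99 without the block, where 0 passed, with 8 higher and 1 lower at an unadjusted p under 0.05 and 3 higher by DESeq2). These 8 were Fbn1, Postn, Fbln2, Col1a1, Col1a2, Col3a1, Col6a1 and Col6a2, led in level by Col3a1 at 2748 ± 668 and 5349 ± 1397 CPM. Fbln1 of the same list went the other way, at 30.6 ± 10.6 and 18.3 ± 3.21 CPM, lower in all 4 pairs (adjusted p = 0.405 without and 0.107 with the block). Dcn, Lum and Pdgfra of the list stood at 8.73 ± 4.11, 3.40 ± 1.45 and 3.10 ± 0.674 CPM in the control. They stood at 34.8 ± 31.0, 10.8 ± 9.66 and 7.07 ± 6.77 in Bmi1-deleted libraries, and none of the 3 passed in either fit. In pairs 1 to 3 these genes were higher in the Bmi1-deleted library. In pair 4 they were lower, at 4.98 against 1.47 CPM for Dcn, 4.64 against 0.340 for Lum and 2.83 against 1.02 for Pdgfra. Of the other genes of the list under 10 CPM, Thy1 and Lox were also lower in pair 4 (3.05 against 2.27 and 0.339 against 0). Dpt, Fap and Mfap5 were higher there (0.113 against 1.25, 0.339 against 3.29 and 0 against 0.340). The part of either list in the changes of the Schwann cell genes was not tested.

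**Figure D4:**
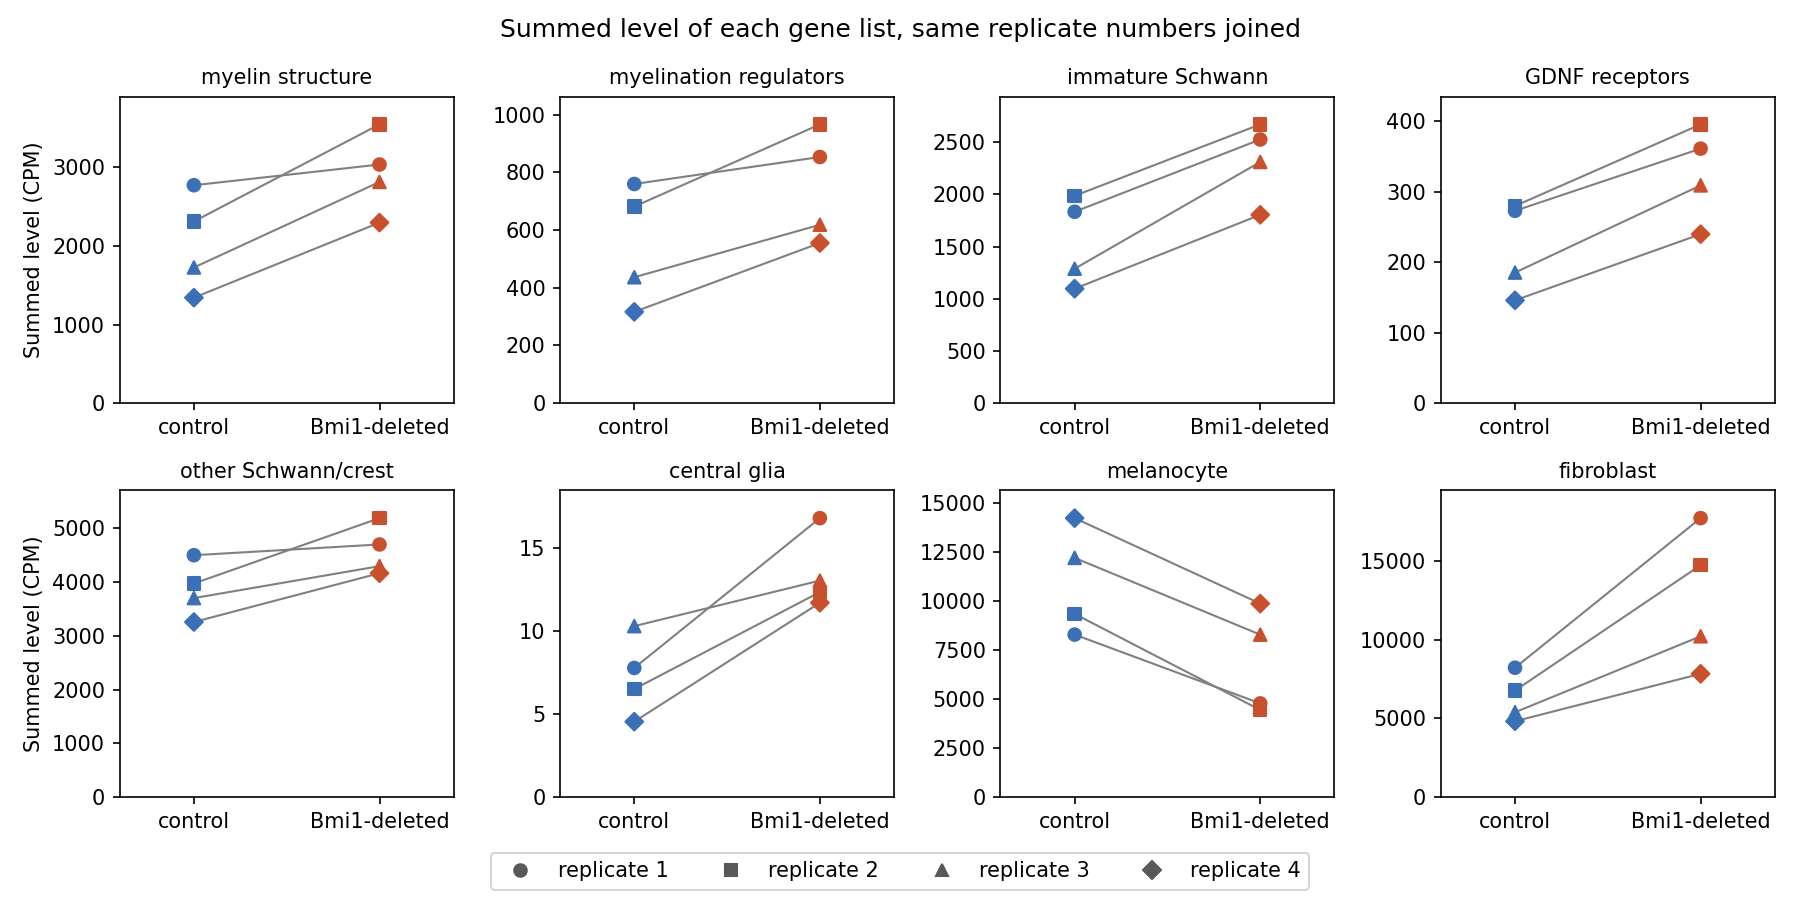
Summed level of each gene list in CPM, per library, with lines joining same-numbered control (blue) and Bmi1-deleted (red) libraries; axes start at 0 and differ between panels. All 4 lines go up for the 4 role groups, the other Schwann cell and crest genes, central glia and fibroblast markers, and all 4 go down for melanocyte markers; central glia stay at or below 16.8 CPM in every library.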

How the data were processed

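RNA of sorted cells was sequenced from 4 control and 4 Bmi1-deleted libraries, made from 1 ng of RNA with 15 cycles of PCR in each of 2 rounds per the labels, so counts may include PCR copies. The authors deposited estimated counts per gene as whole numbers, for which the submitters' processing notes name Salmon 1.2.1 and mm10, and a table of log2 values that are the deposited log2(TPM + 1). Annotation, strand setting and rounding are unknown here. Symbols came from GENCODE M21, in which 54166 of 54418 identifiers had one.

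Counts were filtered with filterByExpr, scaled by TMM and tested with edgeR 4.0.16 in R 4.3.3 (two-sided robust quasi-likelihood F test), with Benjamini-Hochberg adjustment over 16011 genes and a threshold of 0.05. Genotype was the model, and adding the replicate number as a block gave an alternative. The standard error of an edgeR log2 change is its absolute value divided by the square root of its F statistic. After centring within genotype, same-numbered libraries correlated across genes at 0.14, 0.224, 0.168 and 0.215, all over 0.1. The numbers were therefore used as a block in the alternative fit only. This pairing is read from the same data that the block then tests and not from a label. Just 4 of 8 libraries correlated best with their same-numbered partner, so whether the numbers mark true pairs is unknown here. DESeq2 1.42.0, limma 3.58.1 on the log2 table, other filters and scalings, and leaving out libraries or pairs were further alternatives. The fits were also run on simulated counts drawn with no effect of replicate number, so that run could not check what the block adds. The upper limit at 0 counts was taken as 3 counts, for counting error only.

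The text names all 29 members. Of the other lists it names each gene that passed in either fit and, for the Schwann cell and GDNF lists, those of at least 10 CPM. Cspg4, Trp63, Artn, Nrtn and the central glia were picked after their values were seen. So were the fibroblast genes Fbln1, Dcn, Lum, Pdgfra, Thy1, Lox, Dpt, Fap and Mfap5. Lists for other Schwann cell genes, GDNF ligands, neurotrophins, central glia, neurons, melanocytes, fibroblasts, vessels, immune cells, keratinocytes and muscle were read from the same fit. The members and lists were chosen with earlier results of these data known. Some genes of the other Schwann cell list are not reported here and enter no count, median or sum of that list.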

Additional observations from a re-analysis of the deposited data

Results flagged for a closer look

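In 2 of the 56 combinations of gene and genotype checked, 1 library stood apart from the other 3 by more than Dixon's 95% criterion (chance alone gives about 2.8). Both were Bmi1-deleted 2. Pmp2 had 10.1 CPM there against 5.07 to 5.56 in the other Bmi1-deleted libraries (gap over range 0.904), and Drp2 had 80.1 CPM against 47.3 to 50.9 (0.891).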

How the results depend on the processing

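Without the block 0 members rose and 0 fell; with the replicate block 13 rose and 0 fell, with DESeq2 3 rose, with no filter on low counts 11 rose (8 of them among the 13), and with upper-quartile scaling, a filter of 10 CPM in 4 libraries, or limma on log2 TPM 0 rose. Leaving out 1 library gave 0 to 1 that rose, and the block without pairs 1 to 4 in turn gave 15, 5, 8 and 6 that rose and 0 to 1 that fell (Fabp7, without pair 3). Over all genes, 14 rose and 1 fell without the block, 273 and 113 with it, and 110 and 48 with DESeq2, each of 16011 tested. With upper-quartile scaling the numbers were 16 and 3, and with limma 3 and 1, also of 16011. With no filter they were 259 and 121 of 34973, and with the 10 CPM filter 16 and 2 of 9239. Without 1 library, 8 to 40 rose and 0 to 5 fell, of 16662 to 16782 tested. With the block without pairs 1 to 4 in turn, 264, 89, 153 and 124 rose and 87, 24, 85 and 65 fell. Those 4 fits tested 16279, 16178, 16107 and 16251 genes. Over the 11 other lists together, 0 rose and 0 fell without the block, 13 and 8 with it, and 4 and 2 with DESeq2, each of 93 tested. With no filter 8 and 2 of 117 did. Without 1 library, 0 to 1 rose and 0 fell, of 94 to 98 tested. With the block without pairs 1 to 4 in turn, 14, 7, 11 and 12 rose and 7, 6, 8 and 5 fell, of 93, 93, 96 and 94. The cause of these differences was not tested. The direction turned for Pmp2 without control 3 (−0.029), for Egr2 in log2 TPM (−0.013), and for Gfap in log2 TPM (−0.044) and without control 3 (−0.049), control 4 (−0.080) or Bmi1-deleted 1 (−0.13); the highest values of Pmp2 and Gfap with 1 library left out, both without control 2, were 0.88 and 0.97. The median of the 28 genes was 0.54 to 0.61 with the block, DESeq2, upper-quartile scaling or other filters, 0.38 to 0.71 without 1 library, and 0.27 in log2 TPM, a table in which 2 genes took most of each library.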

Other observations

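Other marker lists gave these values in the same fit. Of 5 tested neuronal markers 0 passed with or without the block (1 higher and 0 lower at an unadjusted p under 0.05 without it, and 0 by DESeq2), and their summed level was 15.5 to 30.7 CPM in control and 26.5 to 40.0 in Bmi1-deleted libraries. Of 8 tested endothelial and mural markers 0 passed with or without the block (3 higher, 0 lower and 0 by DESeq2), at 508 to 661 and 507 to 810.2 CPM, most of it Cspg4, which is also a gene of glial and pigment lineages. Of 7 tested immune markers 0 passed with or without the block (0 higher, 0 lower and 0 by DESeq2), at 41.2 to 84.6 and 76.7 to 123 CPM. Of 8 tested keratinocyte markers 1 rose with the block, Krt1, a keratin of the upper epidermis (1.00, edgeR adjusted p = 0.0032; 0.561 without), and 0 passed without it (1 higher and 1 lower at an unadjusted p under 0.05, and 0 by DESeq2). The lower one was Trp63, a factor of basal keratinocytes, at 86.0 ± 22.3 and 63.7 ± 9.73 CPM, lower in all 4 pairs (edgeR adjusted p = 0.549 without and 0.167 with the block). The summed level of the 8 was 1064 to 1282 CPM in control and 767 to 1842 in Bmi1-deleted libraries. Of 7 skeletal muscle markers 1 could be tested and it did not pass, at a summed level of 4.53 to 13.2 and 5.44 to 22.5 CPM.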
